A study of Mus musculus with 12 samples.

Results

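The IL-1 family and inflammasome effector genes described here are 9 mouse genes, chosen by their symbols in the count table: the ligands Il1a, Il1b and Il18, the receptor antagonist Il1rn, the receptors Il1r1 and Il1r2, and the inflammasome genes Casp1, Pycard and Gsdmd. They are 9 of 33100 gene rows, and all 9 had enough reads to be tested. RNA was sequenced in bulk from cells that the labels call NK cells, sorted from tumor or spleen. The mice either carried a conditional knockout (cKO) of 1 gene or were controls (WT). There were 4 groups of 3 libraries: tumor cKO, tumor WT, spleen cKO and spleen WT. The labels used here give no Cre driver, tumor model, strain or age, nor whether each library stands for its own animal. All p-values therefore reflect no more than the spread among these libraries, which may be technical.

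IL-1α and IL-1β, the products of Il1a and Il1b, are inflammatory cytokines that act through the receptor IL1R1. The antagonist IL1RN occupies that receptor without signalling, and IL1R2 is a decoy receptor that binds the ligands without passing on a signal. IL-1β and IL-18 are made as inactive precursors. They are cut by caspase-1 (Casp1), which is activated in inflammasomes, assemblies of a sensor, the adaptor ASC (Pycard) and caspase-1. Caspase-1 also cuts gasdermin D (Gsdmd), which then forms pores in the plasma membrane through which mature cytokine leaves the cell. Il1a, Il1b and Il1rn are made in quantity by activated macrophages, monocytes and neutrophils, and NK cells are known chiefly as responders to IL-18.

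The 250 bases upstream of the annotated start of 4 members are shown, because these 4 cover the ligands of IL1R1, their antagonist and the inflammasome gene with the largest cKO change in tumor. The sequences are from RefSeq (GRCm38.p6), 5′ to 3′ on the strand of the gene, and the last base lies next to the transcription start. Capitals mark matches on either strand to 5 motifs. The TATA box, where transcription starts are positioned, was searched as TATAAA. The site of NF-kB factors was searched as GGGANNNNCC. The core of the site of PU.1, a factor of myeloid cells, was searched as GAGGAA. The site of C/EBP factors was searched as TTGCNNAA, and that of AP-1 as TGANTCA. No match overlaps another in the 4 windows.
Il1a: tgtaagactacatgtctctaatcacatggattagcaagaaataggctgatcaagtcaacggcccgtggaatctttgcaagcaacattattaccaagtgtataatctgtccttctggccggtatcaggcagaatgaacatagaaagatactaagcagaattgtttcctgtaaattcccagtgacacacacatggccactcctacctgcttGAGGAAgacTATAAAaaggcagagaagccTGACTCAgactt
Il1b: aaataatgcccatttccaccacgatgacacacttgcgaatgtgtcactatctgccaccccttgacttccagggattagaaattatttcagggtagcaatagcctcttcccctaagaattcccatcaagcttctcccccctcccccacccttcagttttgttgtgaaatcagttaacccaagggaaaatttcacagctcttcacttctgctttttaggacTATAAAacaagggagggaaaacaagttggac
Il1rn: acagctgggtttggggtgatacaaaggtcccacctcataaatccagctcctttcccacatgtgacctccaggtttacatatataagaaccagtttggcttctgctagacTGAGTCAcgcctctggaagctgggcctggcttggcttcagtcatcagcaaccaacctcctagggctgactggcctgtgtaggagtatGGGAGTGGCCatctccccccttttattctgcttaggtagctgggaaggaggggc
Casp1: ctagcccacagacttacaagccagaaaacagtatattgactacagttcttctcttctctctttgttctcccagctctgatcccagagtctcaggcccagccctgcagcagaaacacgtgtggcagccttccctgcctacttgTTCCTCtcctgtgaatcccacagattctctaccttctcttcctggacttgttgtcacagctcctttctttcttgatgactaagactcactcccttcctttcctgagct
These windows are chr2:129309973-129310222 (minus strand) for Il1a, chr2:129371140-129371389 (minus strand) for Il1b, chr2:24336610-24336859 (plus strand) for Il1rn and chr9:5298267-5298516 (plus strand) for Casp1. In Il1a, GAGGAA began 41 bases upstream of the start, the TATA box letters 32 bases and TGACTCA 12 bases upstream. In Il1b, TATAAA began 31 bases upstream, and none of the other letters was found. Il1rn held TGAGTCA 141 bases and GGGAGTGGCC 54 bases upstream, in the window of the first of its 3 RefSeq starts. The windows of its other RefSeq starts held none of the letters searched. Casp1 held TTCCTC, which is GAGGAA on the other strand, 108 bases upstream. Among 32851 mouse promoter windows of the same length, 12.4% held the TATA box letters, 17.6% the NF-kB letters, 23.3% the PU.1 letters, 9.56% the C/EBP letters and 6.75% the AP-1 letters. A match describes the letters and was not tested as a binding site. RefSeq windows were found for 8 of the 9 members.

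In the coordinates of the deposited table (GRCm38), Il1a spans chr2:129299610-129309972 and Il1b chr2:129364570-129371139, both on the minus strand. Il1rn lies on the plus strand of the same chromosome at chr2:24336853-24351494. The receptor genes Il1r2 (chr1:40074079-40125231) and Il1r1 (chr1:40225080-40317257) are both on the plus strand of chromosome 1. Casp1 (chr9:5298517-5307265, plus), Il18 (chr9:50554827-50581840, plus), Pycard (chr7:127989708-127993867, minus) and Gsdmd (chr15:75862339-75867404, plus) complete the set. In GENCODE vM21, 8 of the 9 members have the same start and end, and Gsdmd is the exception.

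Library totals ranged from 15765906 to 37118494 counted reads in tumor and from 9542329 to 13753737 in spleen. The 8 NK cell markers fixed for this check summed to 25.7 to 39.5 CPM (counts scaled to the library total) in tumor cKO and 39.6 to 145 in tumor WT libraries, against 968 to 1227 in spleen cKO and 934 to 1263 in spleen WT. Ncr1, which encodes the NK cell receptor NKp46, was at 0.421 to 0.769 CPM in tumor cKO, 1.63 to 1.86 in tumor WT, 90.8 to 154 in spleen cKO and 128 to 204 in spleen WT. The 12 macrophage and monocyte markers summed to 771 to 2070 CPM in tumor cKO and 5398 to 12730 in tumor WT, against 133 to 192 in spleen cKO and 41.6 to 75.2 in spleen WT. Thus every tumor library had a lower NK cell marker sum and a higher macrophage marker sum than every spleen library under the same cell type label. The 6 B cell markers summed to 10.1 to 33.7 CPM in tumor cKO and 9.998 to 61.7 in tumor WT, against 2003 to 2386 in spleen cKO and 2262 to 2575 in spleen WT. In bulk RNA, fewer cells of a type and less RNA per cell cannot be told apart.

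**Figure D1:**
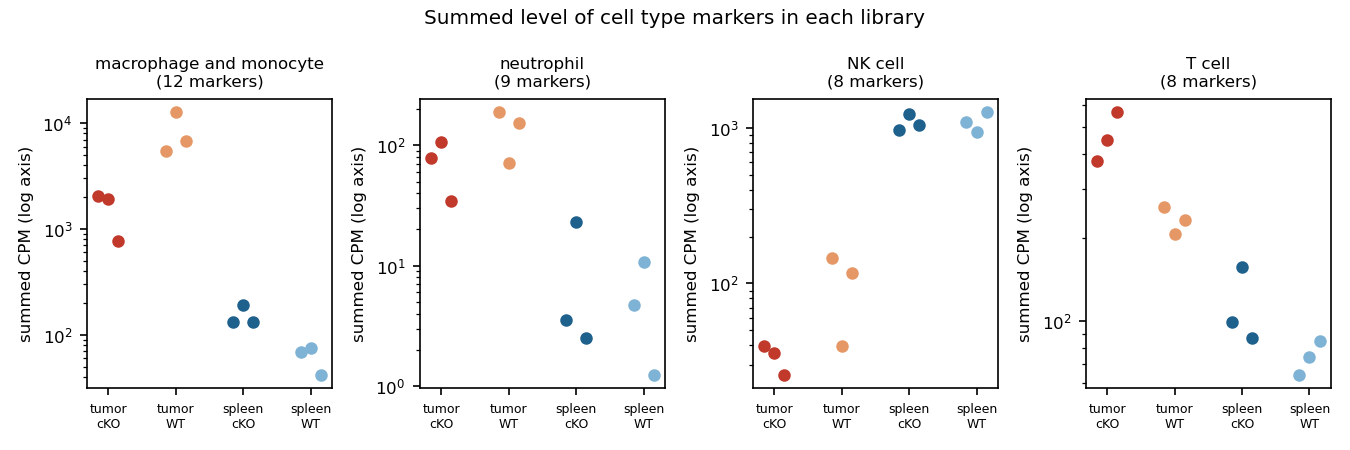
Summed CPM (log axis) of the macrophage and monocyte, neutrophil, NK cell and T cell marker lists in each of the 12 libraries, by group; each point is 1 library. Macrophage markers sum to 771 to 2070 CPM in tumor cKO and 5398 to 12730 in tumor WT, and NK markers are lower in the tumor groups than in the spleen groups.

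Expression of the members was first compared between cKO and WT tumor samples. Of the 9 members, 3 fell (Il1r1, Casp1 and Gsdmd), none rose and 6 did not pass, at an adjusted p under 0.05 in edgeR's quasi-likelihood test with Benjamini-Hochberg adjustment over all 16831 genes tested. In this comparison 38.0% of all genes tested passed, 21.6% as lower in tumor cKO and 16.4% as higher, so a count of 3 of 9 is near the background. The direction of that majority depended on the scaling. Without scaling for library composition 3734 genes passed as higher and 2772 as lower, against 2761 and 3638 with it. The median log2 fold change of the 9 members was -0.81, against -0.117 over all genes tested. Il1r1, Il18, Casp1 and Gsdmd did not overlap between the groups, each lower in tumor cKO. Over all genes 50.3% did not overlap, 27.3% with tumor cKO lower. Il1r1, Casp1 and Gsdmd passed under each of the 22 other settings tried.

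**Figure D2:**
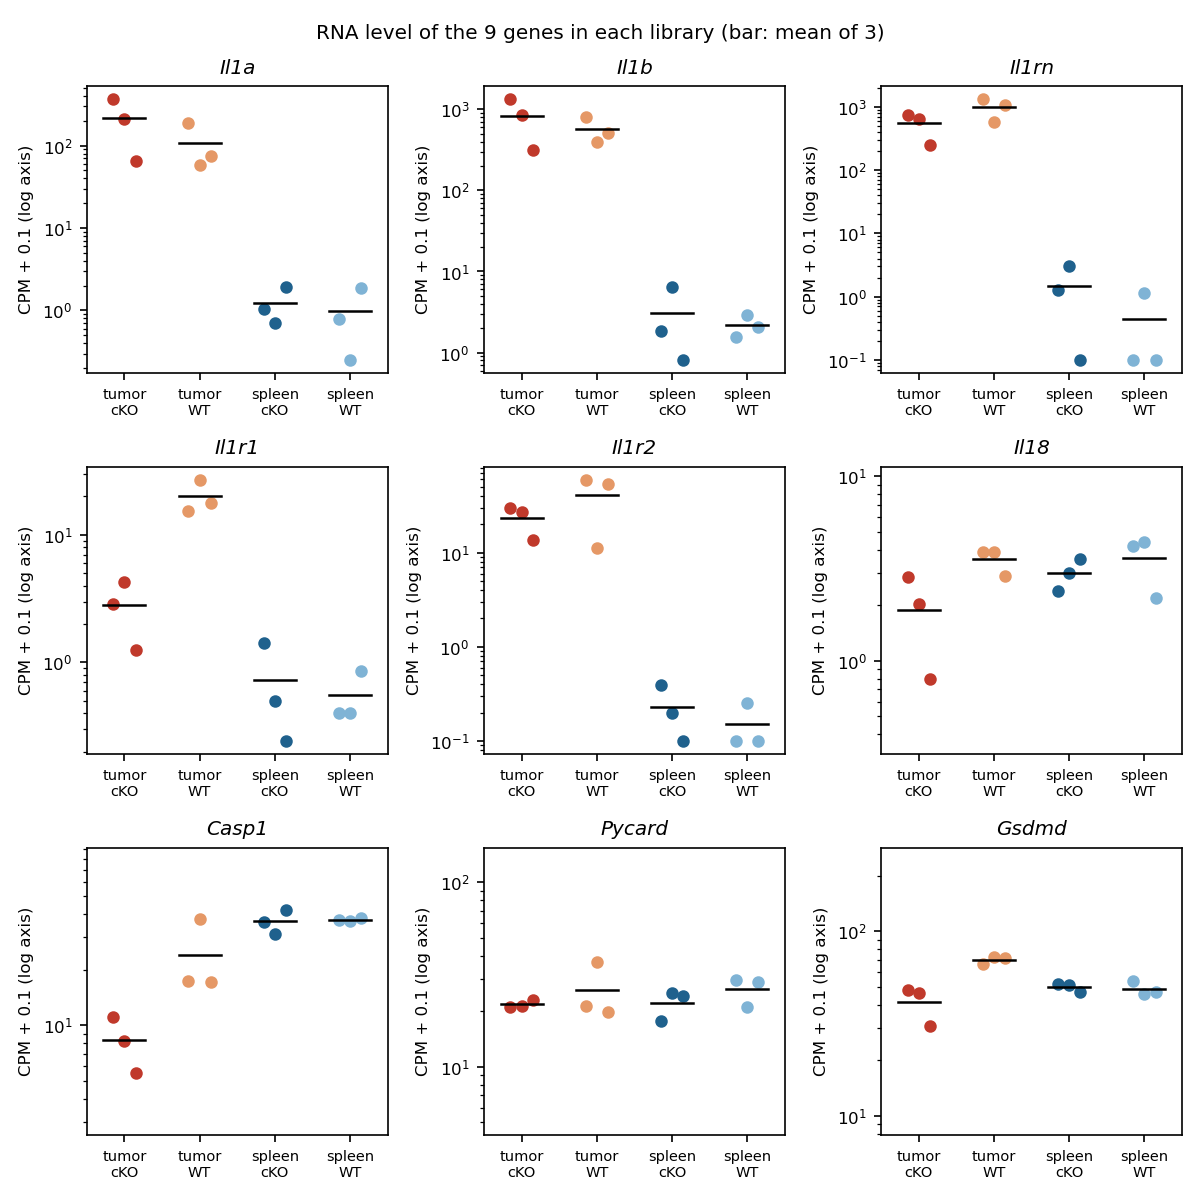
CPM of each of the 9 members in every library, on a log axis after adding 0.1; points are libraries and bars are means of the 3 libraries of tumor cKO, tumor WT, spleen cKO and spleen WT. Il1a, Il1b, Il1rn and Il1r2 are higher in every tumor library than in any spleen library, while Casp1 is lowest in tumor cKO and Gsdmd highest in tumor WT.

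Il1b, the ligand with the highest level in tumor, was at 1338, 852 and 314 CPM in tumor cKO libraries, against 807, 394 and 516 CPM in tumor WT libraries. In spleen it was at 1.76, 6.41 and 0.711 CPM in cKO and at 1.44, 2.79 and 1.98 CPM in WT. The tumor genotypes overlapped, with tumor cKO library 3 the lowest of the 6 and tumor cKO library 1 the highest. The log2 fold change of cKO over WT in tumor was 0.54 ± 0.60 (SE; edgeR adjusted p = 0.505), or 0.031 to 0.94 when single libraries were left out. Tumor exceeded spleen by 8.23 ± 0.85 on the log2 scale in cKO (adjusted p = 1.99e-05) and by 8.10 ± 0.86 in WT (adjusted p = 2.12e-05).

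Il1a was at 366, 211 and 64.1 CPM in tumor cKO, against 186, 58.3 and 75.2 CPM in tumor WT. Its spleen values were 0.954, 0.601 and 1.85 CPM in cKO and 0.683, 0.151 and 1.80 CPM in WT. As for Il1b, tumor cKO library 1 was the highest, and tumor cKO library 3 lay within the WT range. Its log2 fold change of cKO over WT in tumor was 1.005 ± 0.645 (SE; edgeR adjusted p = 0.248), and it moved between 0.37 and 1.68 when single libraries were left out. Tumor exceeded spleen by 7.497 ± 0.925 in cKO (adjusted p = 6.88e-05) and by 6.999 ± 0.944 in WT (adjusted p = 0.000118) on the log2 scale. These log2 differences moved between 6.86 and 8.09 in cKO and between 6.33 and 7.97 in WT when single libraries were left out.

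The exons of Il1a share 222 bases, 11.2% of its listed length, with those of Gm14023 on the opposite strand, and Il1b shares 25 bases with Il1bos. The strand setting of the counting is not given in the sources used here, so reads of these pairs cannot be told apart within the shared bases. Gm14023 had 4918, 2049 and 980 reads in tumor cKO and 1864, 948 and 752 in tumor WT.

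Il1rn, the receptor antagonist, was at 753, 644 and 246 CPM in tumor cKO, against 1328, 576 and 1056 CPM in tumor WT. In spleen it was at 1.17, 3.01 and 0 CPM in cKO and at 0, 1.05 and 0 CPM in WT. The tumor groups overlapped through tumor WT library 2, which was lower than tumor cKO libraries 1 and 2. The log2 fold change of cKO over WT in tumor was -0.85 ± 0.67 (SE; edgeR adjusted p = 0.352), opposite in sign to the values of Il1a and Il1b. In WT, 60838 reads from tumor stood against 14 from spleen, all 14 in library 2, a pooled ratio of 2322 (95% exact interval 1384 to 4247, counting error of independent reads only). Fitted differences of tumor over spleen were 8.74 ± 1.01 in cKO (adjusted p = 4.8e-05) and 11.34 ± 1.16 in WT (adjusted p = 1.89e-05), and the WT value ranged from 10.72 to 17.10 when single libraries were left out. Without spleen WT library 2 no spleen WT read of Il1rn is left, so the fitted value there is not a measured ratio.

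Because the ligands and their antagonist had opposite signs, ratios between members within each tumor library were taken from RPKM (reads scaled to gene length and library total), a choice made after the values were seen. Il1b exceeded Il1rn by 5.16, 3.84 and 3.71 times in tumor cKO libraries, against 1.76, 1.99 and 1.42 times in tumor WT libraries. These ratios depend on the listed lengths, 1907 bases for Il1b and 5535 for Il1rn, and in CPM Il1rn exceeded Il1b in every tumor WT library. The lengths are the same in every library, so they cancel in the comparison of genotypes. On the log2 scale this ratio averaged 2.07 ± 0.26 in tumor cKO and 0.77 ± 0.25 in tumor WT (SD, n = 3 each), a 2.46-fold difference, with an exact two-sided permutation p = 0.1. The Il1a to Il1rn ratio was 1.36, 0.918 and 0.732 in tumor cKO, against 0.393, 0.284 and 0.200 in tumor WT, a 3.45-fold difference (exact permutation p = 0.1). The libraries of the 2 genotypes did not overlap in either ratio, although each of the 3 genes overlapped on its own. A p of 0.1 is the smallest that 3 against 3 libraries can give, and after adjustment over the 4 ratios computed it was 0.13. The Il1a to Il1b ratio was 0.264, 0.239 and 0.197 in tumor cKO and 0.223, 0.143 and 0.141 in tumor WT, with overlap (exact permutation p = 0.2).

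**Figure D3:**
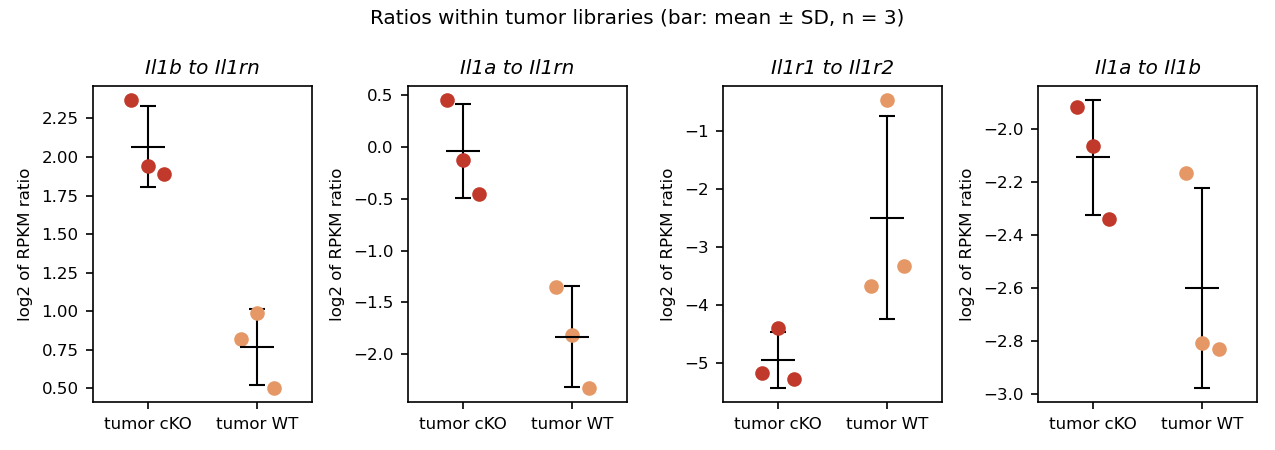
Log2 ratios of RPKM between members in the tumor libraries: Il1b to Il1rn, Il1a to Il1rn, Il1a to Il1b and Il1r1 to Il1r2, with points for the 3 tumor cKO and the 3 tumor WT libraries and the mean ± SD. Both ligand to antagonist ratios are higher in every tumor cKO library than in any tumor WT library, and the Il1r1 to Il1r2 ratio is lower.

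Il1r1, the signalling receptor, fell in tumor cKO. It was at 2.78, 4.21 and 1.16 CPM in tumor cKO libraries, against 15.3, 26.8 and 17.7 CPM in tumor WT libraries, so every cKO library lay below every WT library. On the log2 scale the difference was -2.89 ± 0.56 (SE; edgeR adjusted p = 0.00162), a level 7.43-fold lower, and it ranged from -3.34 to -2.52 when single libraries were left out. In spleen Il1r1 was at 1.32, 0.401 and 0.142 CPM in cKO and at 0.304, 0.301 and 0.756 CPM in WT, with overlap. Tumor WT exceeded spleen WT by 5.48 ± 0.69 on the log2 scale (adjusted p = 2e-05). Tumor cKO exceeded spleen cKO by 2.08 ± 0.64 (adjusted p = 0.0138), a call lost without tumor cKO library 2 (1.64, adjusted p = 0.056) or spleen cKO library 2 (1.87, adjusted p = 0.0515) and by limma on log2(RPKM + 1) (0.38, adjusted p = 0.0832). The cKO groups of the tissues overlapped, at 1.16 CPM in tumor and 1.32 CPM in spleen, and the value was 3.36 without spleen cKO library 1. Spleen values rest on 24 reads in cKO and 16 in WT.

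Il1r2, the decoy receptor, was at 29.98, 26.7 and 13.6 CPM in tumor cKO and at 58.9, 11.2 and 53.3 CPM in tumor WT. Tumor WT library 2 was the lowest of the 6, and the other two WT libraries were the highest. The log2 fold change was -0.81 ± 0.54 (SE; edgeR adjusted p = 0.261), and without tumor WT library 2 it passed at -1.26 (adjusted p = 0.0114). In spleen the gene had 5 reads over the 3 cKO libraries and 2 over the 3 WT libraries. Pooled tumor to spleen ratios were 171 in cKO (95% exact interval 73.2 to 528) and 613 in WT (170 to 5068), covering the counting error of independent reads only.

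Per RPKM, Il1r1 was at 0.0278, 0.0473 and 0.0256 times the level of Il1r2 in tumor cKO libraries, against 0.0781, 0.717 and 0.0994 times in tumor WT libraries. Thus the decoy receptor had more reads per length than the signalling receptor in every tumor library of both genotypes. The log2 difference in this ratio was -2.46 without overlap (exact permutation p = 0.1, adjusted 0.13), and it was -1.45 without tumor WT library 2.

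Il18 had low levels in all 4 groups. It was at 2.73, 1.92 and 0.697 CPM in tumor cKO and at 3.78, 3.77 and 2.77 CPM in tumor WT, against 2.28, 2.91 and 3.48 CPM in spleen cKO and 4.10, 4.29 and 2.08 CPM in spleen WT. Each tumor cKO library lay below each tumor WT library, the nearest pair being 2.73 and 2.77 CPM. In tumor its log2 fold change was -0.95 ± 0.47 (SE; edgeR adjusted p = 0.128). Unlike Il1a and Il1b, Il18 did not pass between tumor and spleen, at -0.70 ± 0.48 in cKO (adjusted p = 0.222) and -0.02 ± 0.47 in WT (adjusted p = 0.972).

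Casp1, the protease that matures IL-1β and IL-18, fell in tumor cKO. It was at 11.0, 8.12 and 5.42 CPM in tumor cKO libraries, against 17.2, 37.8 and 17.1 CPM in tumor WT libraries, and at 36.3, 31.1 and 42.1 CPM in spleen cKO against 37.0, 36.5 and 38.2 CPM in spleen WT. Tumor WT library 2 stood at the spleen level, and the tumor cKO libraries were the lowest of all 12. The log2 fold change in tumor was -1.57 ± 0.32 (SE; edgeR adjusted p = 0.00214), a level 2.96-fold lower. In cKO, tumor fell below spleen by 2.16 on the log2 scale (-2.16 ± 0.32, adjusted p = 9e-05). In WT the value was -0.62 ± 0.31 (adjusted p = 0.0939), which passed without tumor WT library 2 (-1.104, adjusted p = 0.000986) and, with all libraries, without a filter (adjusted p = 0.0371) and by limma (0.0307 and 0.0281).

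Gsdmd, the pore-forming substrate of caspase-1, also fell in tumor cKO. It was at 47.9, 46.0 and 30.6 CPM in tumor cKO libraries, against 66.6, 72.4 and 71.6 CPM in tumor WT libraries. Spleen libraries had 51.4, 51.0 and 46.8 CPM in cKO and 53.9, 45.6 and 46.6 CPM in WT. The 3 tumor WT libraries were the highest of the 12, with no overlap with tumor cKO. Its fold change in tumor was -0.76 ± 0.16 on the log2 scale (SE; edgeR adjusted p = 0.00235), a level 1.70-fold lower. Tumor WT exceeded spleen WT by 0.53 ± 0.16 on the log2 scale (adjusted p = 0.0105). That call was lost without composition scaling (0.39, adjusted p = 0.0508) and by limma (adjusted p = 0.0512 and 0.0506). In cKO the edgeR value was -0.26 ± 0.16 (adjusted p = 0.169).

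Pycard, the adaptor, was at 21.0, 21.2 and 22.8 CPM in tumor cKO and at 21.3, 36.7 and 19.6 CPM in tumor WT, against 17.7, 24.9 and 24.0 CPM in spleen cKO and 29.4, 20.9 and 28.7 CPM in spleen WT. All 4 groups overlapped, and tumor WT library 2 was the highest of the 12. It passed in none of the 5 comparisons, with a log2 fold change of -0.26 ± 0.24 (SE; edgeR adjusted p = 0.405) in tumor. Its exons share 485 bases, 12.8% of the listed length, with Gm45205 on the opposite strand, which had 1022 reads in tumor WT library 2 and 272 to 499 in the other tumor libraries.

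**Figure D4:**
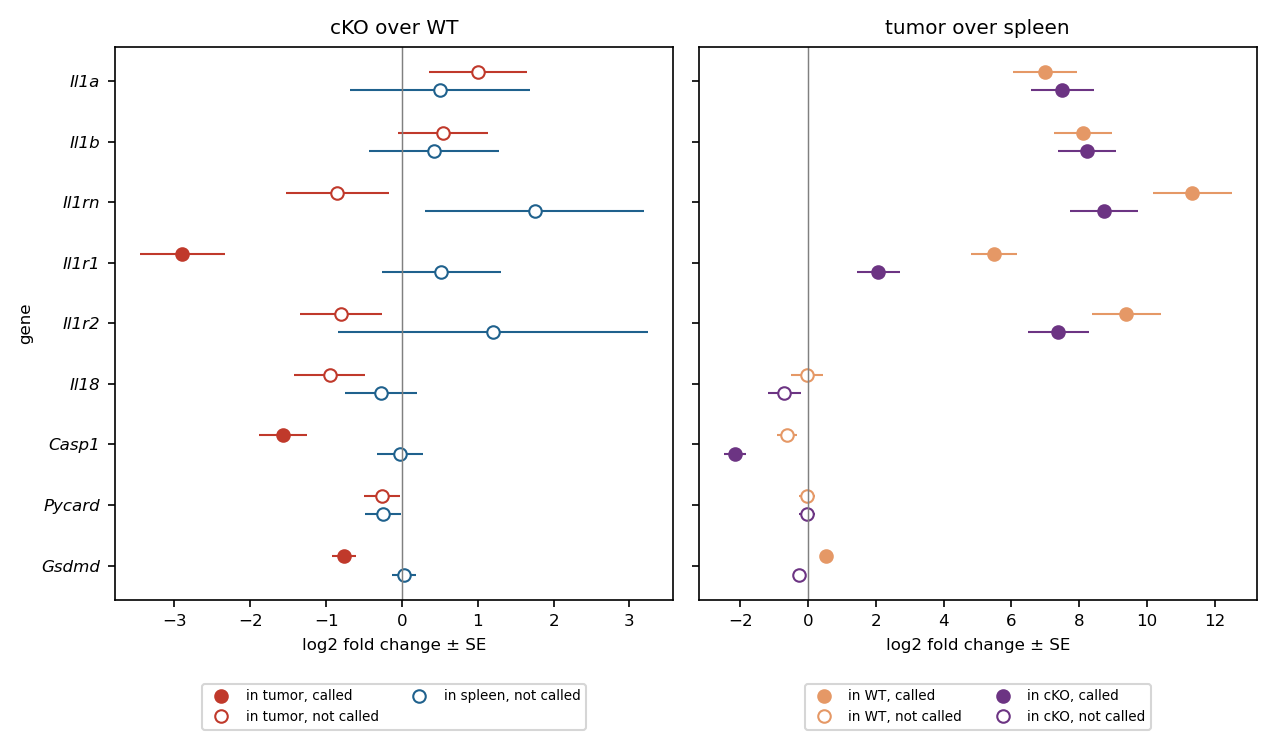
Log2 fold changes ± SE of the 9 members, with cKO over WT in tumor and in spleen in the left panel and tumor over spleen in cKO and in WT in the right panel; filled points passed at an adjusted p under 0.05. In the left panel Il1r1, Casp1 and Gsdmd are filled for tumor alone, and in the right panel Il1a, Il1b, Il1rn, Il1r1 and Il1r2 are filled in both genotypes.

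In spleen, 0 of the 9 members passed between cKO and WT in edgeR, 0 had an unadjusted p under 0.05 and 0 passed in DESeq2. Over all genes tested 0.0297% passed. No member was without overlap in spleen, where 11.4% of all genes were, 5.94% with cKO higher and 5.43% with cKO lower. Log2 fold changes in spleen were 0.51 ± 1.19 for Il1a, 0.42 ± 0.85 for Il1b and 1.75 ± 1.44 for Il1rn (SE), where few reads were counted. For the genes with more reads the values were -0.03 ± 0.30 for Casp1, -0.25 ± 0.24 for Pycard and 0.03 ± 0.16 for Gsdmd.

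Whether the cKO effect differed between the tissues was tested directly, as the tumor effect minus the spleen effect. Il1r1 differed by -3.41 ± 0.95 (SE; edgeR adjusted p = 0.0272), Casp1 by -1.54 ± 0.44 (adjusted p = 0.0291) and Gsdmd by -0.79 ± 0.22 (adjusted p = 0.0274) on the log2 scale. These 3 of 9 members passed, all lower in tumor, against 10.6% of all genes passing as lower, 7.68% as higher and 18.3% in either direction. Each of the 3 calls was close to the threshold and was lost when certain single libraries were left out. The Il1r1 difference was -2.12 (adjusted p = 0.201) without spleen cKO library 1, and its adjusted p was 0.0716 without spleen WT library 1 or 2. The Casp1 call was lost without tumor cKO library 2 or 3, spleen cKO library 1 or 3, or any spleen WT library, with adjusted p up to 0.0695. The Gsdmd call was lost without tumor WT library 3, spleen cKO library 1 or 2, or spleen WT library 2 or 3, with adjusted p up to 0.0723, and without a composition factor (-0.63, adjusted p = 0.0704). By limma neither Casp1 (adjusted p = 0.0618 and 0.0626) nor Gsdmd (0.0599 and 0.0557) passed.

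Between tumor and spleen, 6 of the 9 members passed in cKO, 5 higher (Il1a, Il1b, Il1rn, Il1r1 and Il1r2) and 1 lower (Casp1). Over all genes 60.5% passed, 31.7% as higher and 28.8% as lower. In cKO 5 members did not overlap between the tissues, as against 70.0% of all genes, 36.6% with tumor higher and 33.4% with tumor lower. In WT 6 members passed, all higher, the same 5 genes and Gsdmd, where 62.0% of all genes passed, 33.9% as higher and 28.1% as lower. In WT 6 members did not overlap, as against 67.4% of all genes. The median log2 fold change of the members was 2.08 in cKO and 5.48 in WT, against 0.071 and 0.116 over all genes. The log2 differences of Il1a, Il1b, Il1rn, Il1r1 and Il1r2 lay between 5.48 and 11.34 in WT, where Il18, Pycard and Casp1 did not pass.

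Compared per length as mean RPKM, the order of the members differed between tissues. In tumor cKO it was Il1b (456), Il1a (113), Il1rn (103), Gsdmd (24.4), Il1r2 (12.8), Pycard (5.94), Casp1 (5.69), Il18 (1.80) and Il1r1 (0.446). Neighbours with overlapping libraries were Il1b and Il1a, Il1a and Il1rn, and Pycard and Casp1. In tumor WT the order was Il1b (275), Il1rn (163), Il1a (49.3), Gsdmd (36.4), Il1r2 (19.5), Casp1 (14.95), Pycard (6.31), Il18 (3.08) and Il1r1 (2.901). There the pairs Il1b and Il1rn, Il1a and Gsdmd, Il1r2 and Casp1, and Il18 and Il1r1 overlapped. In spleen cKO and spleen WT the order began with Gsdmd (28.8 and 27.8), Casp1 (25.0 and 25.2), Pycard (6.01 and 7.04) and Il18 (2.88 and 3.44), and Il1b (1.61 and 1.101) came next. RPKM depends on the listed lengths, which run from 1031 bases for Il18 to 6363 for Il1r1.

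The other genes of the pathway were taken from a list of 43, of which 42 had a row and 37 were tested. In tumor cKO against tumor WT, 2 of the 37 rose, 21 fell and 14 did not pass, beside 16.4% higher and 21.6% lower over all genes, with a median log2 fold change of -0.78 against -0.117 over all genes. The count of 23 was 14 by limma on log2(RPKM + 0.1) and 15 when the tumor libraries were fitted alone. In spleen 0 of the 37 passed in edgeR, with 0 at an unadjusted p under 0.05 and 0 passing in DESeq2. The cKO effect differed between the tissues for 8 of the 37, near the 18.3% of all genes, and for 13 by DESeq2. The count was 5 without tumor cKO library 3, spleen cKO library 1 or 3, or spleen WT library 1 or 3, and up to 11 without another library. It was higher in tumor for Map3k7 and lower for Il1rap, Il18rap, Myd88, Irak4, Naip5, P2rx7 and Txnip, with P2rx7 at -2.84 ± 0.54 on the log2 scale (SE; edgeR adjusted p = 0.00529).

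Of the other IL-1 family ligands and receptors, 5 of 8 tested fell in tumor cKO and none rose, beside 21.6% lower and 16.4% higher over all genes. Il1rap, the accessory protein with which IL1R1 signals, averaged 13.6 ± 4.16 CPM in tumor cKO and 37.3 ± 14.6 CPM in tumor WT (SD, n = 3 each; log2 -1.45 ± 0.32 SE, edgeR adjusted p = 0.00359). Il1rl1, which encodes the IL-33 receptor ST2, averaged 1.37 ± 0.452 CPM in tumor cKO and 12.9 ± 6.27 CPM in tumor WT, and Il1rl2, the receptor of the IL-36 cytokines, averaged 1.38 ± 0.495 CPM in tumor cKO and 8.40 ± 4.56 CPM in tumor WT. Both fell, with log2 fold changes of -3.21 ± 0.74 (edgeR adjusted p = 0.00476) for Il1rl1 and -2.61 ± 0.61 (adjusted p = 0.00507) for Il1rl2. Of the IL-18 receptor subunits, Il18rap fell, at 11.4 ± 0.769 CPM in tumor cKO and 17.8 ± 4.34 CPM in tumor WT (log2 -0.64 ± 0.16, adjusted p = 0.00737), a call lost by limma (adjusted p = 0.0576 and 0.0914) and with the tumor libraries alone (0.0716). Il18r1 was at 22.1, 49.6 and 59.3 CPM in tumor cKO and 35.2, 31.2 and 35.3 CPM in tumor WT (log2 0.36 ± 0.26, adjusted p = 0.295), and it passed as higher without tumor cKO library 1 (0.69, adjusted p = 0.00232). Both subunits were lower in tumor than in spleen, where Il18r1 averaged 182 CPM in cKO and 202 CPM in WT. The log2 fold changes of tumor over spleen were -2.06 ± 0.27 in cKO (edgeR adjusted p = 3.67e-05) and -2.57 ± 0.27 in WT (adjusted p = 6.27e-06) for Il18r1. For Il18rap they were -3.71 ± 0.17 in cKO (adjusted p = 4.58e-09) and -2.95 ± 0.17 in WT (adjusted p = 1.84e-08).

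Among 10 receptor signalling genes, 1 rose and 6 fell, beside 16.4% higher and 21.6% lower over all genes. Myd88, the adaptor of IL-1 family and Toll-like receptors, averaged 22.6 ± 3.08 CPM in tumor cKO and 38.8 ± 1.33 CPM in tumor WT (log2 -0.78 ± 0.17, edgeR adjusted p = 0.00307). The kinase gene Irak4 fell as well (log2 -0.54, adjusted p = 0.00204), as did Tab2 (-0.44, adjusted p = 0.00416), whose product binds the kinase TAK1. Map3k7, which encodes TAK1, rose, at 122 ± 17.6 CPM in tumor cKO and 80.4 ± 8.44 CPM in tumor WT (log2 0.60, adjusted p = 0.00284).

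Of the inflammasome sensors and their partners, 5 of 11 tested fell and none rose, beside 21.6% lower and 16.4% higher over all genes. Naip5, a receptor for bacterial flagellin, averaged 17.4 ± 2.85 CPM in tumor cKO and 35.4 ± 7.60 CPM in tumor WT (log2 -1.03 ± 0.18, edgeR adjusted p = 0.000953). Naip6 (log2 -0.92, adjusted p = 0.00854) is a near copy of Naip5, so reads may be split between them. Aim2, a sensor of cytosolic DNA, also fell (-1.20, adjusted p = 0.00841), and Nlrp1b fell (-1.23 ± 0.38, adjusted p = 0.0223), a call lost without tumor WT library 2 (-1.01, adjusted p = 0.0619), by limma on log2(RPKM + 0.1) (0.0519) and with the tumor libraries alone (0.0777). With the tumor libraries alone Aim2 was lost too (adjusted p = 0.0653), and Naip6 was lost by limma on log2(RPKM + 0.1) (0.0552). Nlrp3, the sensor that responds to many danger signals, was at 211, 165 and 64.7 CPM in tumor cKO, against 288, 234 and 239 CPM in tumor WT. Its groups did not overlap, and it did not pass (log2 -0.79 ± 0.48, adjusted p = 0.228). In spleen Nlrp3 averaged 0.267 CPM in cKO, all from library 2, and no read was counted in WT. For independent reads this allows up to 0.0810 CPM over the 3 WT libraries, and more if mates of a pair were counted separately.

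Among 8 genes of other caspases, pores and release, 1 rose and 5 fell, beside 16.4% higher and 21.6% lower over all genes. P2rx7, the ATP-gated channel that triggers NLRP3, was at 7.64, 11.8 and 3.49 CPM in tumor cKO, against 50.6, 69.4 and 52.4 CPM in tumor WT (log2 -2.92 ± 0.38, edgeR adjusted p = 0.000175). Ninj1, which ruptures the membrane of dying cells, averaged 51.3 ± 16.8 CPM in tumor cKO and 134 ± 43.7 CPM in tumor WT (log2 -1.38 ± 0.28, adjusted p = 0.0021). Txnip, whose product binds thioredoxin, fell (-0.98, adjusted p = 0.000438). Dfna5, which encodes gasdermin E and is cut by caspase-3, rose, at 65.9, 55.7 and 64.8 CPM in tumor cKO, against 22.4, 32.1 and 21.4 CPM in tumor WT (log2 1.29 ± 0.21, adjusted p = 0.000549). Thus the 2 gasdermin genes named here moved in opposite directions in tumor cKO. Casp4, the caspase that senses bacterial lipopolysaccharide in mouse, was just past the threshold (-0.89 ± 0.33, adjusted p = 0.0482) and passed in 8 of 22 other settings. The Casp4 call was lost without tumor cKO library 3 (adjusted p = 0.108), tumor WT library 1 (0.112), tumor WT library 3 (0.146) or any 1 of the spleen libraries (0.0578 to 0.0659). It was also lost without a composition factor (0.102), with DESeq2's size factors (0.0538), by limma (0.0858 and 0.0784) and with the tumor libraries alone (0.146).

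**Figure D5:**
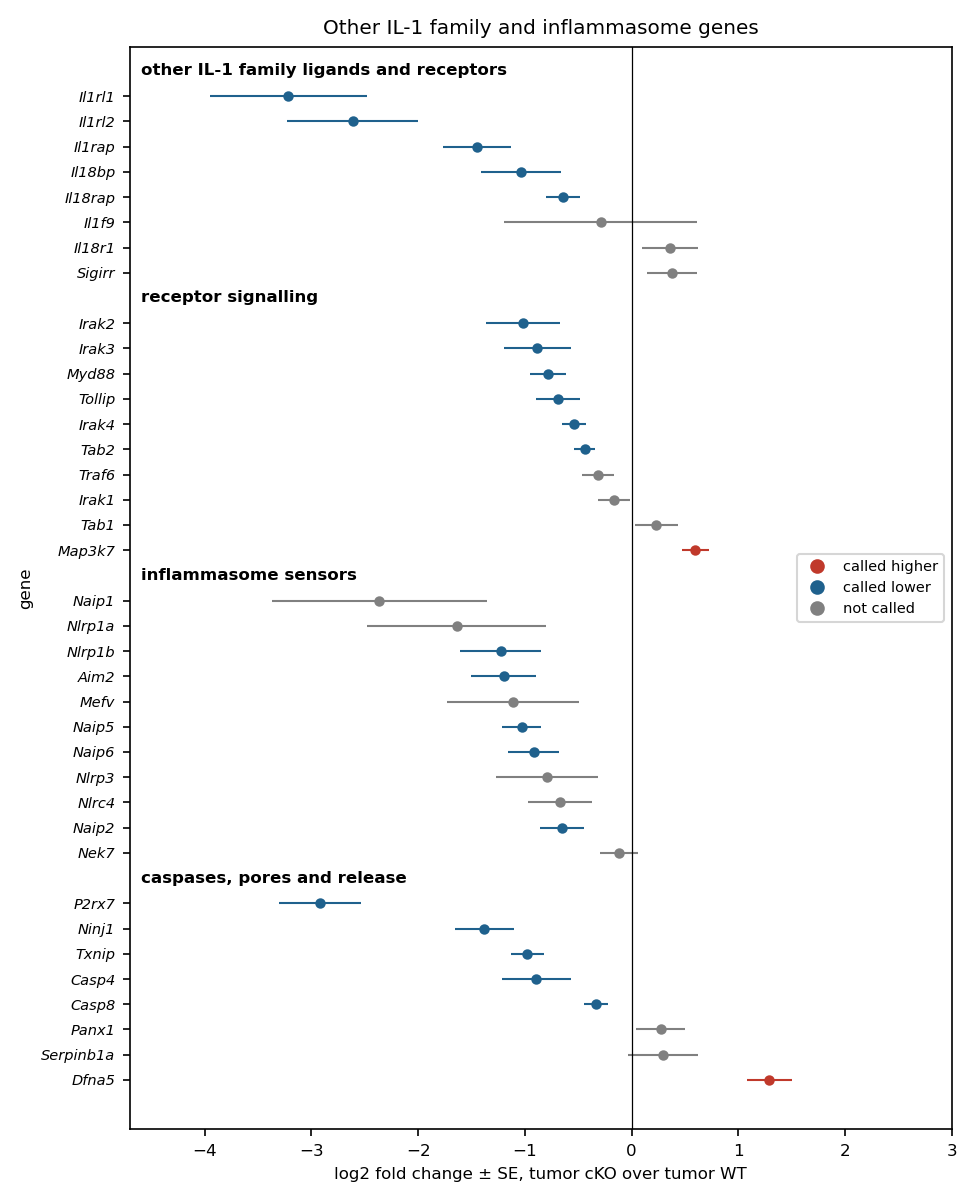
Log2 fold changes ± SE of cKO over WT in tumor for the 37 tested genes of the related list, by group of the list. Red points were called higher and blue points lower at an adjusted p under 0.05, and grey points did not pass. Dfna5 and Map3k7 are the 2 red points, and the 21 blue points include P2rx7, Il1rl1 and Il1rl2.

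Markers of cell types were also compared between the tumor genotypes, where 16.4% of all genes tested passed as higher and 21.6% as lower. All 12 macrophage and monocyte markers fell in tumor cKO, among them Adgre1 at 20.6 ± 9.55 CPM in tumor cKO and 135 ± 70.5 CPM in tumor WT (log2 -2.72, edgeR adjusted p = 0.000428) and Lyz2 at 1028 ± 441 CPM in tumor cKO and 3552 ± 2654 CPM in tumor WT (log2 -1.79, adjusted p = 0.014). In the same comparison Il1r1 (-2.89), Casp1 (-1.57) and Gsdmd (-0.76) passed. Il1rn (-0.85), Il1r2 (-0.81), Il18 (-0.95), Pycard (-0.26), Il1a (1.005) and Il1b (0.54) did not pass. Tumor WT library 2 had the highest summed macrophage markers of the 12 libraries and the highest Il1r1, Casp1, Gsdmd and Pycard of the tumor libraries. The same library had the lowest Il1a and Il1r2 of the tumor libraries and the lowest Il1b and Il1rn of the WT ones. Tumor cKO library 3 had the lowest macrophage sum of the tumor libraries and the lowest Il1b, Il1rn, Il1r1, Il18, Casp1 and Gsdmd of them. The 9 neutrophil markers summed to 34.8 to 107 CPM in tumor cKO and 70.9 to 189 CPM in tumor WT, with 1 of 7 tested called (Retnlg, lower) and Ly6g at 0 in tumor WT and both spleen groups. T cell markers summed to 378 to 566 CPM in tumor cKO and 205 to 257 CPM in tumor WT, with 3 of 8 called as higher. The 8 NK cell markers had 6 called as lower in tumor cKO. Fibroblast markers summed to 17.9 to 57.9 CPM in tumor cKO and 60.0 to 1216 CPM in tumor WT, the highest being tumor WT library 2, with 2 of 4 called as lower. Dendritic cell markers summed to 11.9 to 21.0 CPM in tumor cKO and 21.9 to 30.1 CPM in tumor WT, with 2 of 5 tested called as lower. Of the epithelial markers 1 of 4 tested was called, as lower, and of the mast cell and basophil markers 0 of 3. Of the 6 B cell markers 1 was called as higher and 1 as lower. The part of these cell types in the results was not tested.

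Across the 12 libraries, the genes whose centred log2 CPM lay closest to that of Il1b were Clec4e, Olr1 and Ptgs2, at root mean square differences of 0.618, 0.733 and 0.810. Those closest to Il1a were Il10 (0.792), Ifi205 (0.897) and Il6 (0.920), and those closest to Il1rn were F10 (1.12), Nlrp3 (1.13) and Ptgs2 (1.26). Among the closest to Casp1 were Sgk3 (0.193) and AW112010 (0.203). For Pycard they were Ap3m1 (0.160), Lrrc8c (0.165) and Emc2 (0.174), and for Gsdmd Mef2a (0.0995), Iqgap1 (0.105) and Dleu2 (0.114). The distances are on a log2 scale, and genes that vary little are close to many others. Il1r1, Il1r2 and Il18 had a mean log2 CPM under 2, and no like genes were named for them.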

How the data were processed

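TRIzol was used to extract total RNA and an Illumina NovaSeq instrument to sequence it, per the labels' protocols. Reads were mapped to mm10 (GRCm38) with TopHat2 2.0.6, per the submitters' processing notes. How reads were counted, with which strand setting and after which filter, is not given in the sources used here. One table deposited by the authors holds counts, whole reads per gene without normalization. Another, also deposited by the authors, holds RPKM values, reads scaled to listed gene length and library total. Of the nonzero deposited RPKM values, 100% matched those computed from the counts within a relative tolerance of 0.001. Of the counts between 1 and 49, an even number made up 68.8% to 73.3%, which counting each mate of a pair would give. Counting noise is then larger than the counts imply. The exact intervals treat reads as independent, so they are then too narrow even for counting error. The targeted gene is not reported here, and the genotypes were taken from the labels without a check of its level.

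From the counts, genes were filtered with filterByExpr, scaled by TMM (factors 1.032 to 1.055 in tumor cKO, 0.896 to 0.957 in tumor WT and 1.008 to 1.046 in spleen), and tested with edgeR 4.0.16 (glmQLFit, robust, and glmQLFTest; R 4.3.3) on all 12 libraries with 1 mean per group, two-sided, with Benjamini-Hochberg adjustment over 16831 genes. This left 8 residual degrees of freedom, with a common dispersion of 0.0801. SE is the log2 fold change divided by the square root of F. CPM are over TMM-scaled totals. Alternatives used DESeq2 1.42.0, limma 3.58.1, other scalings and filters, a replicate block and left-out libraries. Ratios were tested by exact permutation (scipy 1.17.1). Only the edgeR fit was run on simulated counts, with the same dispersion for all genes and no difference between tissues. That run does not cover genes near the floor in spleen or libraries that stand apart from their group. The median of all genes between tumor genotypes was -0.117 by TMM, -0.110 by DESeq2's size factors and 0.055 without a composition factor (log2). More genes passed as higher than as lower in tumor cKO without a composition factor. The same held by limma, with 3921 higher and 2719 lower on log2(RPKM + 0.1).

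All 9 members were named. Of the related genes, up to 4 per group with the smallest p in tumor were named, plus Il18r1, Il18rap, Il1rap, Nlrp3 and Casp4, and up to 3 genes of like pattern per member. Members and lists were chosen with earlier results of these data known. Promoter windows are from RefSeq (GRCm38.p6).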

Additional observations from a re-analysis of the deposited data

Results flagged for a closer look

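For 3 of the 9 members the cKO effect differed between tumor and spleen by the direct test of that difference (edgeR, adjusted over all genes tested). Over all genes 18.3% passed this test, 10.6% as lower. Each of the 3 calls was lost when certain single libraries were left out. The tumor effect minus the spleen effect was -3.41 for Il1r1, -1.54 for Casp1 and -0.79 for Gsdmd on the log2 scale. Their tumor effects were -2.89, -1.57 and -0.76, against spleen effects of 0.51, -0.03 and 0.03. By the direct test 10 of 12 macrophage and monocyte markers differed, all lower in tumor. In tumor cKO 12 of 12 were called as lower. In spleen 0 of 12 were called, with a median of 1.29. There 10 of 12 did not overlap between the genotypes, against 11.4% of all genes. The part of these markers in the differences was not tested.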

How the results depend on the processing

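The tumor calls of Il1r1, Casp1 and Gsdmd held in all 22 other settings, with log2 fold changes of -3.34 to -1.42, -1.84 to -0.83 and -0.87 to -0.55. Without a filter on low counts, 7 members passed in tumor and 1 in spleen by edgeR. In tumor the added calls were Il1a (1.02 ± 0.175 SE, adjusted p = 1.05e-07) and Il1b (0.56 ± 0.155, 0.00263) as higher in cKO. Il1rn (-0.84 ± 0.155, 1.14e-06) and Il1r2 (-0.79 ± 0.249, 0.00985) were added as lower. Their log2 values were near those of the main fit, where the SE were 0.645, 0.596, 0.674 and 0.541 in this order. The change was in the SE, and the libraries of each gene overlapped between the tumor genotypes. In spleen Il1rn passed as higher in cKO (1.75 ± 0.328, adjusted p = 0.00703), against an SE of 1.44 in the main fit. In the difference between tissues 4 members passed without a filter by edgeR, 1 under each limma fit, and 0 to 3 with single libraries left out. The call added without a filter was Il1rn, lower in tumor (-2.58 ± 0.36 SE, edgeR adjusted p = 7.15e-08). In the main fit its value was -2.60 ± 1.58 (edgeR adjusted p = 0.288). The 5 genes called in spleen over all genes became 40 by DESeq2, 230 without a filter, 10 and 11 by limma on log2(RPKM + 0.1) and log2(RPKM + 1), 31 with the spleen libraries alone, 34 with tumor WT library 2 and tumor cKO library 3 left out, 2 with the replicate block and 0 to 8 with single libraries left out. The replicate numbers are not stated to pair samples, so the block was not used further. Same-numbered cKO and WT libraries of tumor correlated at -0.088, -0.02 and 0.111 after removing group means. Tumor and spleen libraries of the same number were not compared in this way, so pairing between the tissues was not tested. Among related genes, Il1rl2 (adjusted p = 0.0664), Naip6 (0.0756) and Nlrp1b (0.0815) were lost with tumor WT library 2 and tumor cKO library 3 left out, and Tab2 without a filter (0.052). Nlrp3 passed as lower in tumor cKO without a filter (-0.78 ± 0.17 SE, edgeR adjusted p = 5.64e-05). Causes of these changes were not tested.

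Some values that did not pass changed sign. For Il18 in tumor against spleen in WT these were 0.015 (DESeq2), 0.015 (its size factors), 0.040 (no filter) and 0.019 (replicate block). For Pycard they were 0.052 in tumor with both libraries left out; 0.0100, 0.0096 and 0.043 (DESeq2, its size factors, no filter) between tissues in WT; and 0.012, 0.011 and 0.045 in cKO. The Pycard difference was 0.0016 (DESeq2), 0.0018 (its size factors), 0.13 (no composition factor), 0.0014 (no filter), 0.21 and 0.17 (limma), 0.30 (both left out) and 0.033 (replicate block), and the Il1b difference was -0.016 with the replicate block. With single libraries left out, values crossed 0 in spleen for Il1a (-0.050 to 1.48), Il1b (-0.75 to 0.93), Il1r1 (-0.77 to 1.05), Il1r2 (-0.32 to 4.32), Casp1 (-0.14 to 0.075) and Gsdmd (-0.015 to 0.11). They also did so for Il18 (-0.29 to 0.15) and Pycard (-0.35 to 0.17) between tissues in WT, Pycard in cKO (-0.17 to 0.069) and in tumor (-0.41 to 0.087), and the differences of Il1a (-0.47 to 1.17), Il1b (-0.39 to 1.30) and Pycard (-0.16 to 0.34). Of 979 member values under other settings, 888 kept their direction and side of the threshold. Spleen values of Il1a, Il1b, Il1rn, Il1r1 and Il1r2 are limited by their few reads.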

Other observations

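Il1bos, on the strand opposite Il1b, had 400, 238 and 136 reads in tumor cKO and 342, 123 and 227 in tumor WT, against 2, 1 and 2 in spleen cKO and 0, 0 and 0 in spleen WT. Gm14023, opposite Il1a, had 5, 5 and 11 reads in spleen cKO and 9, 9 and 8 in spleen WT.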
